A study of Rattus norvegicus with 12 samples.

Results

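The genes described here serve antigen presentation on the major histocompatibility complex (MHC), which in the rat is called RT1. Members were the probes whose annotated symbol was one of 10 genes: the class II chains RT1-Da, RT1-Ba, RT1-Bb and RT1-Db1, the class II peptide exchange factors RT1-DMa and RT1-DMb, the invariant chain Cd74, and the class I genes B2m, Tap1 and Tap2. A probe was found for 9 of the 10, with 1 probe per gene, out of 13787 probes with a gene symbol on the array, and RT1-Bb had none. All 9 were bright enough to be tested, among 10281 tested probes of 7437 named genes and of unnamed transcripts. Left ventricles of 12 Wistar rats had been measured, each on 1 bead array (Illumina RatRef-12) and in 1 colour. An adeno-associated virus of serotype 9, AAV-VEGF-B, which carries the human growth factor VEGF-B (the isoform is not given in the sources used here), had been given by tail vein to 6 rats, and 6 control rats had received AAV-HSA, which encodes human serum albumin. In each vector group 3 hearts came from females after 2 months of expression and 3 from males after 4 months, and the males had been injected again, so that the effects of sex, of duration and of a second injection cannot be told apart. RNA was taken from whole left ventricular tissue, in which more cells of a type and more RNA per cell cannot be told apart.

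Class II molecules are pairs of an alpha and a beta chain that carry peptides from the endosome to the surface of antigen-presenting cells, where helper T cells read them. The invariant chain CD74 holds the groove of a new class II pair until cathepsins cut it away, and DM, itself a pair of DMa and DMb, then exchanges its last fragment for a peptide. Class I molecules, which nearly every cell carries, need the small subunit beta-2 microglobulin, and the transporter made of TAP1 and TAP2 brings peptides from the cytosol into the endoplasmic reticulum for them. Macrophages, dendritic cells and B cells are the usual sources of class II transcripts in the heart, and interferon-gamma is a known inducer of both classes. VEGF-B is a ligand of the VEGF receptor VEGFR-1, best known for its action on the vessels and muscle of the heart.

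The promoters of class II genes share an X box and a Y box, at which the RFX complex and the NF-Y complex bind. Promoter windows from RefSeq (rat assembly GRCr8), from 250 bases before to 50 bases after each annotated start, were given for 9 of the 10 genes. The X box letters GCAACNG, where N is any base, and the Y box letters ATTGG were searched on both strands, and the letters were chosen with these promoters in view. The shares of all windows given below are therefore a description and no test of these promoters. X box letters were found in RT1-Da, RT1-Ba and RT1-Db1, and in 12.2% of 33469 rat promoter windows. In each of the 3, Y box letters on the same strand began between 30 and 40 bases after the first X box letter, a spacing present in 0.212% of the windows. The 3 genes are shown because their levels moved together across the hearts, as described below. Each stretch of 180 bases runs from position -160 to position 20 relative to the start, with X box and Y box letters in capitals: RT1-Da at chr20:4515255-4515434 on the plus strand, RT1-Ba at chr20:4576897-4577076 on the plus strand and RT1-Db1 at chr20:4560143-4560322 on the minus strand.
RT1-Da: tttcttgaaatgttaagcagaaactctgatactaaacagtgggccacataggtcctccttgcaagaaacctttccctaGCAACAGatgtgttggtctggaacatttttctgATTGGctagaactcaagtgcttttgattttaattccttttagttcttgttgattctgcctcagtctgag
RT1-Ba: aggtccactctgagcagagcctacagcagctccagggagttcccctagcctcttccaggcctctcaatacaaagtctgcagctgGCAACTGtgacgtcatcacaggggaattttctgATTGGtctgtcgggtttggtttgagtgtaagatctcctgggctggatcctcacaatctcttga
RT1-Db1: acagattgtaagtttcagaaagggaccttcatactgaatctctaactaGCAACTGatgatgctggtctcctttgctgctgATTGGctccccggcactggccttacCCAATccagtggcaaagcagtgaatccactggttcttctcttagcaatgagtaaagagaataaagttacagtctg
The X box letters began at -82 in RT1-Da, at -76 in RT1-Ba and at -112 in RT1-Db1. Y box letters by themselves were common, in 37.5% of all windows and in 7 of the 9 members, and the window of Cd74 held them at -189 on the opposite strand. A match is a description of the letters and not a measured binding site. A window without these exact letters, such as that of Cd74 for the X box, is not shown to lack the box.

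A pair of copies of GAAA with 2 bases between them, letters taken from the element at which interferon regulatory factors bind, was found on either strand in the windows of B2m, Tap1 and Tap2 and of no other member, and in 3.92% of all windows. These 3 class I genes are shown over the same positions, B2m at chr3:129549170-129549349 on the plus strand, Tap1 at chr20:4668524-4668703 on the minus strand and Tap2 at chr20:4652277-4652456 on the minus strand, with the interferon element letters and, in B2m, the Y box letters in capitals.
B2m: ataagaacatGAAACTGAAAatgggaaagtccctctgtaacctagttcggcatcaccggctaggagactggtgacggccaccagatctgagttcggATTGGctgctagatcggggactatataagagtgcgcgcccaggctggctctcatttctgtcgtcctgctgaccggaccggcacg
Tap1: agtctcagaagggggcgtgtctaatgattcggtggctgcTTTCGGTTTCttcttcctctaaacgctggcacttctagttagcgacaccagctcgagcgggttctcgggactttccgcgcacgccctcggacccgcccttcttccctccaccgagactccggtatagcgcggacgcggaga
Tap2: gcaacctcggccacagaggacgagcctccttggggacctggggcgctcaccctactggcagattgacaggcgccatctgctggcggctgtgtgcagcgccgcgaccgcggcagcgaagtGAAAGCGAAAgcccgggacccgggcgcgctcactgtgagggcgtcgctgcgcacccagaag
The element letters began at -150 in B2m, at -121 in Tap1, where they lie on the opposite strand, and at -41 in Tap2.

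Levels are given as normalized log2 intensities, on which a difference of 1 is a doubling, and levels of different probes are not set against each other. Over the 6 AAV-VEGF-B and 6 AAV-HSA hearts, 0 of the 9 members passed the test of the vector (limma, Benjamini-Hochberg adjusted p under 0.05), where 5.2% of all tested probes passed in either direction. The members were chosen with earlier results of these data known, and they moved together across the hearts. Counts of members beside shares of all probes are therefore, here and below, a description and no test of the set. Changes lay above 0 for 8 of the 9, where 43.8% of all probes did, with a median of 0.29 on the log2 scale against -0.02 over all tested probes. At an unadjusted p under 0.05, 3 members were higher, against 10.6% of all probes: RT1-Ba with a change of 0.69 in log2 (SE 0.25, adjusted p = 0.13), RT1-Da with 0.59 (SE 0.22, adjusted p = 0.14) and B2m with 0.40 (SE 0.14, adjusted p = 0.12). For none of the 9 did the 6 AAV-VEGF-B hearts lie above all 6 AAV-HSA hearts, a separation that 2.96% of all probes showed. Without the heart of AAV-HSA replicate 1, the highest control for B2m, the change of B2m was 0.49 and passed (limma, adjusted p = 0.043). This was 1 of 20 alternative fits, and B2m passed in no other of them (adjusted p up to 0.22).

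In females after 2 months, 2 of the 9 members, RT1-Ba and B2m, rose with AAV-VEGF-B, against 2.53% of all tested probes called higher. Another 5 were higher at an unadjusted p under 0.05, which made 7 of 9 where 10% of all probes were. These counts describe a list chosen with earlier results known, whose members are not independent of each other. The median change of the 9 members was 0.65, against -0.03 over all probes. Scaling the arrays by their medians in place of quantiles moved the median of all probes from -0.03 to 0.10 and that of the members to 0.71, and 6 members then passed, with RT1-Da, RT1-Db1, RT1-DMa and Tap2 beside these 2. Fits to the 6 female arrays alone, or without the filter on dim probes, called 0 of the 9. With the deposited log2 values in place of the background-corrected ones the changes in females were 0.74 for RT1-Ba, which still passed, 0.28 for RT1-DMa, 0.25 for Tap1 and 0.28 for Tap2, and over the 12 hearts they were 0.40, 0.12, 0.12 and 0.15. RT1-Da, which did not pass in the main fit, passed in females with those values (0.96, adjusted p = 0.036) and with an offset of 50 (1.0, adjusted p = 0.045).

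**Figure D1:**
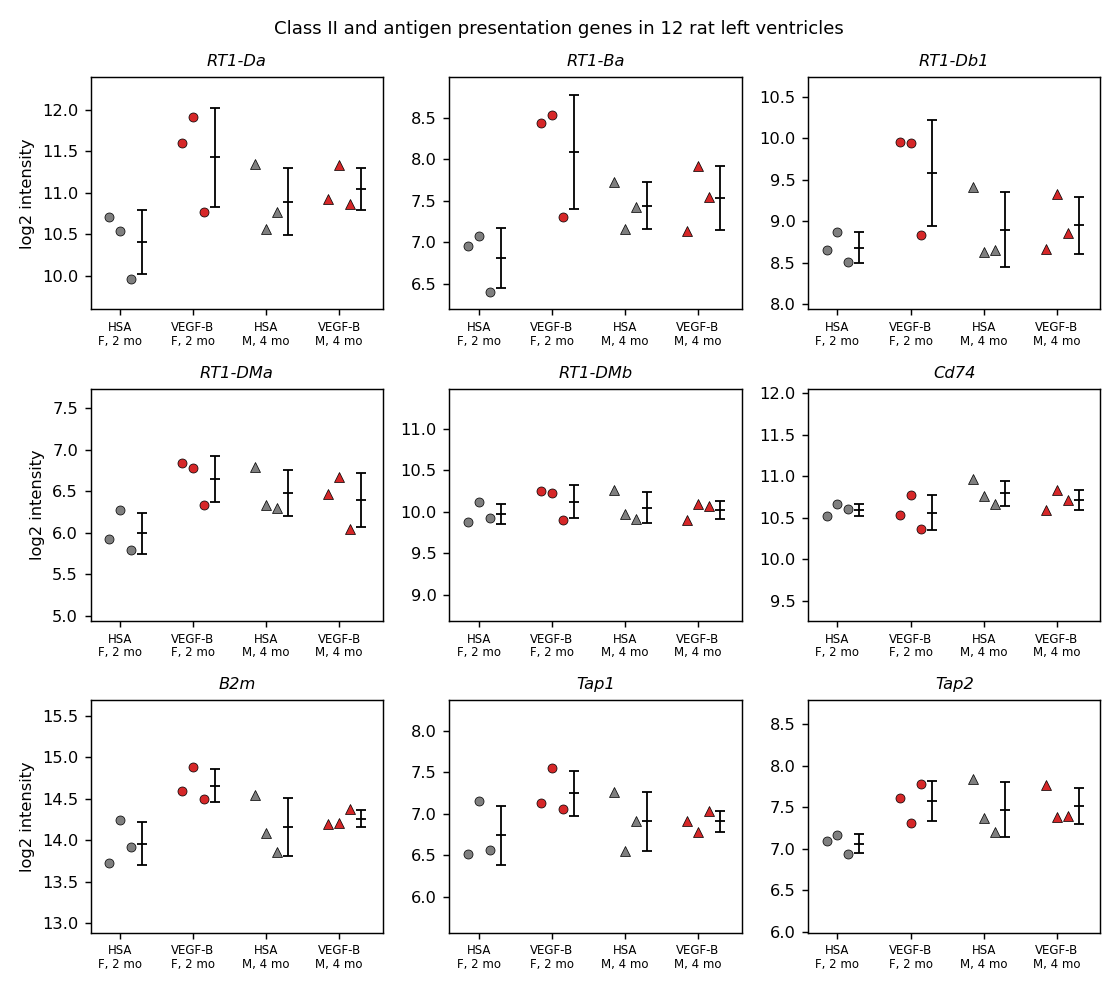
Normalized log2 intensity (vertical axis, every panel spanning an equal range) of the 9 members in AAV-HSA (grey) and AAV-VEGF-B (red) hearts of females after 2 months (circles) and males after 4 months (triangles); each point is 1 heart, and bars are the mean with the SD of 3 hearts. The 3 AAV-VEGF-B females lie above the 3 AAV-HSA females for RT1-Da, RT1-Ba, RT1-DMa, B2m and Tap2, and the male groups overlap in every panel.

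RT1-Ba encodes the alpha chain of the class II molecule RT1-B, the rat counterpart of mouse I-A. In AAV-HSA females its level was 6.96 in replicate 2, 7.07 in replicate 4 and 6.40 in replicate 6. In AAV-VEGF-B females it was 8.44 in replicate 1, 8.54 in replicate 3 and 7.30 in replicate 5. All 3 AAV-VEGF-B females were above the 3 controls, and replicate 5 was the nearest to them. The log2 change was 1.28 (limma, SE 0.30, adjusted p = 0.038), or 2.43-fold, and it was 0.74 with the deposited log2 values. In males the 3 AAV-HSA hearts ran from 7.16 to 7.73 and the 3 AAV-VEGF-B hearts from 7.14 to 7.91, so that the groups overlapped, with a log2 change of 0.10 (SE 0.30, adjusted p = 0.95). The call in females ended when AAV-VEGF-B replicate 1 was left out (adjusted p = 0.16), or replicate 3 (0.099) or replicate 6 (0.051), and without AAV-HSA replicate 2 (0.072), replicate 4 (0.052), replicate 5 (0.051) or replicate 6 (0.15), while the change stayed between 1.06 and 1.41 in these fits.

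RT1-Da and RT1-Db1 encode the alpha chain and a beta chain of RT1-D, the counterpart of mouse I-E and human HLA-DR. RT1-Da stood at 10.71, 10.54 and 9.97 in AAV-HSA females (replicates 2, 4 and 6) and at 11.60, 11.91 and 10.77 in AAV-VEGF-B females (replicates 1, 3 and 5). Again the 3 AAV-VEGF-B hearts were the higher ones, and replicate 5 exceeded the highest control by little. The log2 change of 1.02 (SE 0.29, 2.03-fold) had an adjusted p of 0.070. RT1-Db1 was at 8.66, 8.87 and 8.51 in AAV-HSA females and at 9.95, 9.94 and 8.84 in AAV-VEGF-B females. Here replicate 5 fell within the controls, and the log2 change of 0.90 (SE 0.29) had an adjusted p of 0.12. Without that heart both passed, RT1-Da with 1.35 (limma, adjusted p = 0.023) and RT1-Db1 with 1.27 (adjusted p = 0.023). It was the AAV-VEGF-B female nearest the controls, so leaving it out had to raise the change. Of 19 alternative fits RT1-Da passed in 4 (adjusted p up to 0.24) and RT1-Db1 in 2 (up to 0.34). In males the log2 change was 0.15 for RT1-Da (95% confidence interval -0.46 to 0.77) and 0.05 for RT1-Db1 (-0.58 to 0.68), with overlapping hearts in both. Among the females a marker of atrial muscle, the light chain gene Myl7, was also high in AAV-VEGF-B replicates 1 and 3. It stood at 9.09 and 9.34 there, against 7.58 in replicate 5 and 6.74, 7.74 and 7.85 in AAV-HSA replicates 2, 4 and 6. The log2 change was 1.23 (limma, unadjusted p = 0.016, adjusted p = 0.16, and 0.039 without replicate 5). The AAV-HSA females did not follow the same order, since replicate 6 was their highest for Myl7 and their lowest for RT1-Da, RT1-Ba and RT1-Db1. The other tested atrial marker had a log2 change of -0.02 in females. The hearts of replicates 1 and 3 were the highest of the females for Myl7 and for RT1-Da, RT1-Ba and RT1-Db1, and the summed intensity of the 2 tested atrial markers ran from 246 to 699 in AAV-VEGF-B females and from 177 to 281 in AAV-HSA females. The part of atrial tissue in the members' values was not tested.

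RT1-DMa and RT1-DMb encode the chains of DM, which edits the peptides that class II molecules carry. RT1-DMa was the dimmest member against background, above it on 11 of the 12 arrays. Its level was 5.92, 6.27 and 5.79 in AAV-HSA females and 6.84, 6.77 and 6.33 in AAV-VEGF-B females, and the 3 hearts with AAV-VEGF-B were again the higher ones, by 0.65 in the mean (SE 0.20, adjusted p = 0.095). RT1-DMb varied less, from 9.88 to 10.26 over the 12 hearts, and its log2 change in females was 0.15 (SE 0.13, 95% confidence interval -0.13 to 0.43, adjusted p = 0.58). In males the changes were -0.08 for RT1-DMa and -0.03 for RT1-DMb (adjusted p = 0.93 and 0.97).

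Cd74, the chaperone of class II chains, did not pass in any comparison. Its level was 10.52, 10.66 and 10.61 in AAV-HSA females, 10.54, 10.78 and 10.36 in AAV-VEGF-B females, 10.96, 10.76 and 10.66 in AAV-HSA males and 10.60, 10.84 and 10.72 in AAV-VEGF-B males. The groups overlapped, and the 12 hearts together spanned from 10.36 to 10.96. The log2 change with AAV-VEGF-B was -0.04 in females (95% confidence interval -0.31 to 0.23, adjusted p = 0.90) and -0.06 over both strata (-0.26 to 0.15, adjusted p = 0.79); with median scaling these were 0.10 and 0.05. The interval in females ends below the lower limit of the interval of RT1-Ba (0.63 to 1.93), but the difference between the 2 probes was not tested.

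B2m, the subunit shared by class I molecules, rose in females. Its level was 13.72, 14.24 and 13.91 in AAV-HSA females and 14.59, 14.88 and 14.50 in AAV-VEGF-B females. The highest control lay below the lowest AAV-VEGF-B heart, and the log2 change was 0.70 (SE 0.18, 1.62-fold, adjusted p = 0.049). In males the 3 AAV-HSA hearts ran from 13.86 to 14.54 and enclosed the 3 AAV-VEGF-B hearts, from 14.19 to 14.38, with a log2 change of 0.10 (SE 0.18, adjusted p = 0.89). The adjusted p in females was near the threshold and rose past it without any 1 of the 6 AAV-VEGF-B hearts (0.13 without replicate 1, 0.062 without 2, 0.12 without 3, 0.067 without 4, 0.070 without 5 and 0.063 without 6) and without AAV-HSA replicate 2 (0.14), replicate 3 (0.060) or replicate 6 (0.15).

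Tap1 and Tap2, the chains of the peptide transporter, had log2 changes of 0.51 each in females (SE 0.20 and adjusted p = 0.20 for Tap1, SE 0.17 and adjusted p = 0.14 for Tap2). Tap2 stood at 7.09, 7.16 and 6.94 in AAV-HSA females and at 7.62, 7.31 and 7.79 in AAV-VEGF-B females, without overlap. Tap1 stood at 6.51, 7.15 and 6.56 against 7.13, 7.55 and 7.05, so that 2 of the AAV-VEGF-B females were below the highest control. In males the changes were 0.00 for Tap1 (95% confidence interval -0.44 to 0.44) and 0.05 for Tap2 (-0.33 to 0.42).

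**Figure D2:**
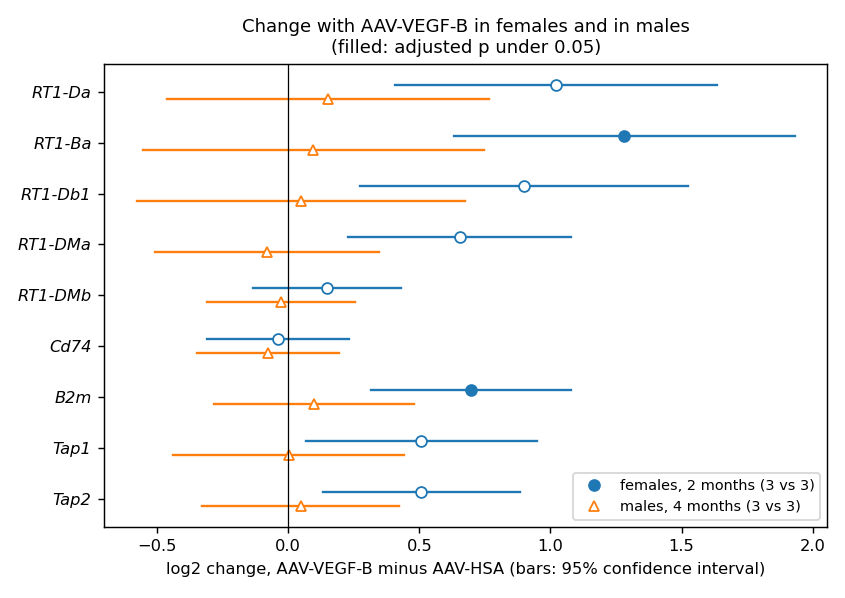
Log2 change of each member with AAV-VEGF-B against AAV-HSA in females after 2 months (blue circles) and males after 4 months (orange triangles), from the fit of 4 groups with 3 hearts each; bars are 95% confidence intervals and filled symbols have an adjusted p under 0.05. The changes in females run from -0.04 for Cd74 to 1.28 for RT1-Ba and those in males from -0.08 to 0.15.

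Over the 9 members, 5 had all 3 AAV-VEGF-B females above all 3 AAV-HSA females, which 11.1% of all tested probes showed, and 0 had all 3 AAV-VEGF-B males above the 3 AAV-HSA males, which 9.56% showed. In males 0 of 9 passed the test (limma), where 0.788% of all probes passed, with 0 at an unadjusted p under 0.05 against 11.4% of all probes, and the members' median change was 0.05. The difference between the change in males and that in females was tested directly. It lay below 0 for 9 of 9 members, while 51.2% of all probes lay above 0, with a median of -0.60 against 0.01 over all probes, and passed for 0 of 9, as for 0% of all probes. At an unadjusted p under 0.05, 4 members were below 0, where 5.27% of all probes were in either direction: RT1-Ba with -1.19 (SE 0.43), RT1-Da with -0.87 (SE 0.40), RT1-DMa with -0.74 (SE 0.28) and B2m with -0.60 (SE 0.25), each with an adjusted p of 0.94. The change with the vector was not shown to differ between females after 2 months and males after 4 months for any member.

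Between males after 4 months and females after 2 months, over both vectors, 0 of 9 members passed (limma), where 1.06% of all tested probes passed, with 0 at an unadjusted p under 0.05 against 16.5% of all probes. The log2 differences, males minus females, ran from -0.21 for RT1-Db1 to 0.18 for Tap2, with 0.18 (SE 0.09, adjusted p = 0.35) for Cd74. The order of the group means was AAV-HSA females, AAV-HSA males, AAV-VEGF-B males and AAV-VEGF-B females, from lowest to highest, for RT1-Da (10.41, 10.89, 11.04 and 11.43), RT1-Ba (6.81, 7.44, 7.53 and 8.09), RT1-Db1 (8.68, 8.90, 8.95 and 9.58), B2m (13.96, 14.16, 14.26 and 14.66), Tap1 (6.74, 6.91, 6.91 and 7.25) and Tap2 (7.06, 7.47, 7.52 and 7.57). Neighbours in this order overlapped in their hearts, except that the AAV-HSA females lay below the AAV-HSA males for RT1-Ba and Tap2 and the AAV-VEGF-B males below the AAV-VEGF-B females for B2m and Tap1.

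Hearts differed within groups, and 1 control was high for the members. Shares over all probes were not computed for the counts that follow, and members that move together are not independent of each other. AAV-HSA replicate 1, a male, had the highest level of the 6 AAV-HSA hearts for 9 of the 9 members, and of all 12 hearts for 3 of them. Among AAV-VEGF-B hearts, replicate 3 was the highest of all 12 for 4 members and replicate 1 for 2, both females. AAV-HSA replicate 6, a female, was the lowest of the 12 for 5 members and replicate 2, a female, for 3. Without AAV-HSA replicate 1 the log2 changes in males were 0.38 for RT1-Da, 0.31 for RT1-Db1 and 0.29 for B2m, and 0 of the 9 passed.

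The members' levels were compared across the 12 hearts in all 36 pairs, with two-sided permutation tests over 100000 orders adjusted over the pairs. A Pearson r above 0.5 was found for 24 pairs, and an adjusted p under 0.05 was reached by 22 pairs for r and by 17 for Spearman's rho. The share of all gene pairs on these arrays that reach such values was not computed. The orders were drawn over all 12 hearts, so differences between vectors and strata enter these values. RT1-Da and RT1-Ba gave the highest, r = 0.96 (adjusted p = 0.00048; Spearman rho = 0.90, adjusted p = 0.0072). Leaving out the 2 hearts farthest from the median of RT1-Da gave 0.91, and the values were 0.98 within the 6 females, 0.83 within the 6 males, 0.95 within AAV-VEGF-B and 0.94 within AAV-HSA. RT1-Db1 gave r = 0.91 with RT1-Da and 0.93 with RT1-Ba (adjusted p = 0.00048 for both; rho = 0.80 and 0.79, adjusted p = 0.016 for both), with 0.91 and 0.80 without the 2 farthest hearts. The hearts that were high for 1 of these chains were high for the others.

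Among the 5 class II RT1 genes, r ran from 0.72 to 0.96 over 10 pairs, and 10 had an adjusted p under 0.05 by Pearson's r and 8 by Spearman's rho, RT1-DMb with RT1-Da (rho = 0.52, adjusted p = 0.12) and with RT1-DMa (rho = 0.62, adjusted p = 0.064) being the exceptions. Within the 6 females the same 10 pairs ran from 0.76 to 0.98 and within the 6 males from 0.46 to 0.94. Cd74 differed: with the 5 class II RT1 genes r ran from 0.31 to 0.58, and 0 of these 5 pairs had an adjusted p under 0.05. With RT1-Da it was 0.34 (adjusted p = 0.33; rho = 0.34, adjusted p = 0.33) and 0.28 without the 2 hearts farthest from the median of Cd74. Within the 6 males these 5 pairs gave 0.66 to 0.93 and within the 6 females 0.23 to 0.61. Within the 6 AAV-HSA hearts they gave 0.67 to 0.91, and within the 6 AAV-VEGF-B hearts 0.20 to 0.48. The 12 hearts shared the array type and the normalization, and the difference between the correlations was not tested.

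**Figure D3:**
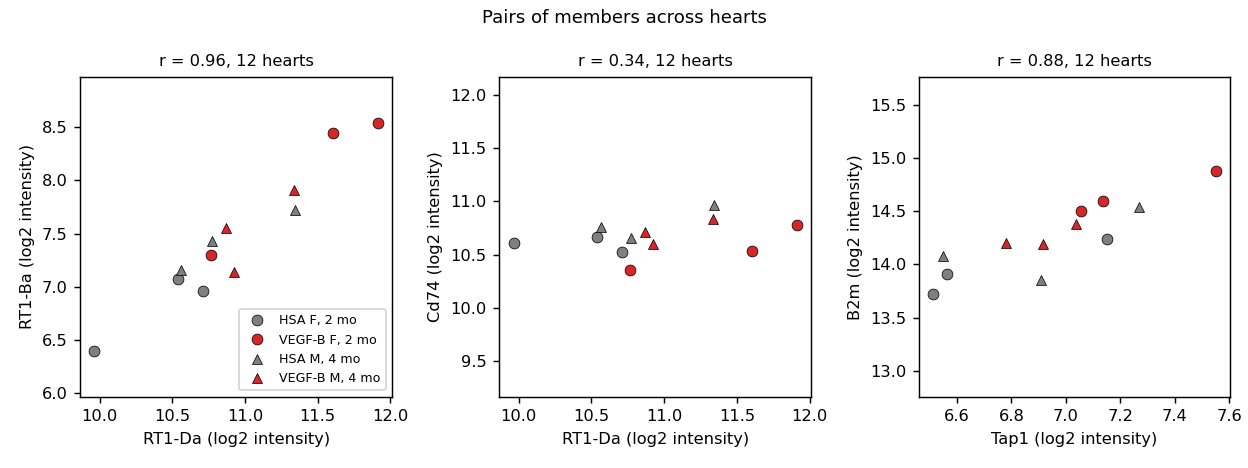
Normalized log2 intensities of pairs of members in the 12 hearts: RT1-Ba against RT1-Da, Cd74 against RT1-Da and B2m against Tap1, with AAV-HSA in grey, AAV-VEGF-B in red, females as circles and males as triangles; the vertical axes span the same 3 log2 units. The points of RT1-Ba rise with RT1-Da (r = 0.96), while those of Cd74 stay between 10.36 and 10.96 (r = 0.34).

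In the class I pathway, B2m and Tap1 gave r = 0.88 (adjusted p = 0.0015; rho = 0.88, adjusted p = 0.0072), with 0.74 without the 2 hearts farthest from the median of B2m, 0.95 within the females and 0.65 within the males. Tap2 stood further from both, with r = 0.58 to B2m (adjusted p = 0.076; rho = 0.59, adjusted p = 0.083) and 0.44 to Tap1 (adjusted p = 0.21; rho = 0.46, adjusted p = 0.17), and its r to both was below 0 within the 6 AAV-VEGF-B hearts (-0.32 and -0.36). Of the 15 pairs between a class II RT1 gene and B2m, Tap1 or Tap2, 11 had an adjusted p under 0.05 by r and 8 by rho.

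Among 7436 other genes, those whose profile over the 12 hearts was most like that of Tap1 included partners of the class I pathway. Psmb8, an immunoproteasome subunit that cuts peptides for class I, came first with r = 0.94 (rho = 0.90), and Psmb10, another such subunit, was eighth with 0.87 (rho = 0.73). Aff4, a scaffold of transcription elongation, had 0.91 and the phosphatase gene Ptpn2 0.89. Gbp2, a GTPase induced by interferon-gamma, had 0.89, the transcription factor gene Irf1 0.88 and the T cell attractant Cxcl9 0.88, and B2m itself was seventh. For Cd74 the 8 most alike were Rpl35a (r = 0.82), Supt5h (0.82), Cops5 (0.82), Wdr12 (0.81), Utp14a (0.81), Slc6a8 (0.81), Atosa (0.80) and Taf9 (0.80), of which none was a member or belonged to a list of antigen presentation or interferon genes. With 12 hearts and so many genes, values of this size are a description.

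Other genes of the class II pathway moved in part. Of 23 listed genes 18 had a probe and 10 were tested; 2 rose with AAV-VEGF-B over the 12 hearts and 1 fell, where 4.17% and 1.03% of all tested probes did, with a median change of 0.08. Ifi30, the thiol reductase that opens antigens in the lysosome, was between 7.61 and 8.18 in the 6 AAV-HSA hearts (median 7.97) and between 8.22 and 8.59 in the 6 AAV-VEGF-B hearts (median 8.37), without overlap, a log2 change of 0.42 (SE 0.10, adjusted p = 0.023). Ctss, the cathepsin that trims the invariant chain, was between 6.95 and 7.62 (median 7.27) in AAV-HSA and between 7.38 and 8.05 (median 7.81) in AAV-VEGF-B hearts, with a log2 change of 0.48 (SE 0.13, adjusted p = 0.044). Both also rose in females, by 0.59 for Ifi30 (SE 0.13, adjusted p = 0.032) and by 0.70 for Ctss (SE 0.17, adjusted p = 0.040), while the values in males were 0.25 and 0.26 (adjusted p = 0.52 and 0.61). Nfyb, a subunit of the NF-Y complex that binds the Y box, was the gene that fell, with a change of -0.36 in log2 (SE 0.10, adjusted p = 0.041).

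These calls were close to the threshold. Nfyb was at -0.21 with median scaling (adjusted p = 0.24), and without the filter on dim probes the adjusted p was 0.052 for Nfyb and 0.076 for Ctss. Over the 12 hearts Ctss lost its call without any single one of AAV-VEGF-B replicates 1, 2, 3 and 4 and AAV-HSA replicates 1, 2, 3, 4 and 6 (adjusted p from 0.052 to 0.10), Ifi30 without AAV-VEGF-B replicate 1 (0.058) and Nfyb without any of AAV-VEGF-B replicates 1, 2, 5 and 6 and AAV-HSA replicates 1, 2, 3 and 6 (0.051 to 0.085). In females Ctss lost it without any of AAV-VEGF-B replicates 1, 3 and 4 and AAV-HSA replicates 1, 2, 4 and 6 (0.054 to 0.17) and Ifi30 without any of AAV-VEGF-B replicates 1 and 3 and AAV-HSA replicates 2 and 6 (0.069 to 0.14). Both female calls were lost with the 6 female arrays alone (adjusted p = 0.089 for Ifi30 and 0.10 for Ctss), and that of Ctss without the filter (0.065). The probes of Ciita, the master switch of class II transcription, of the RFX genes Rfx5 and Rfxap, and of Nfya, RT1-DOb and RT1-Ha were above background on 0 of the 12 arrays and have no order between groups.

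**Figure D4:**
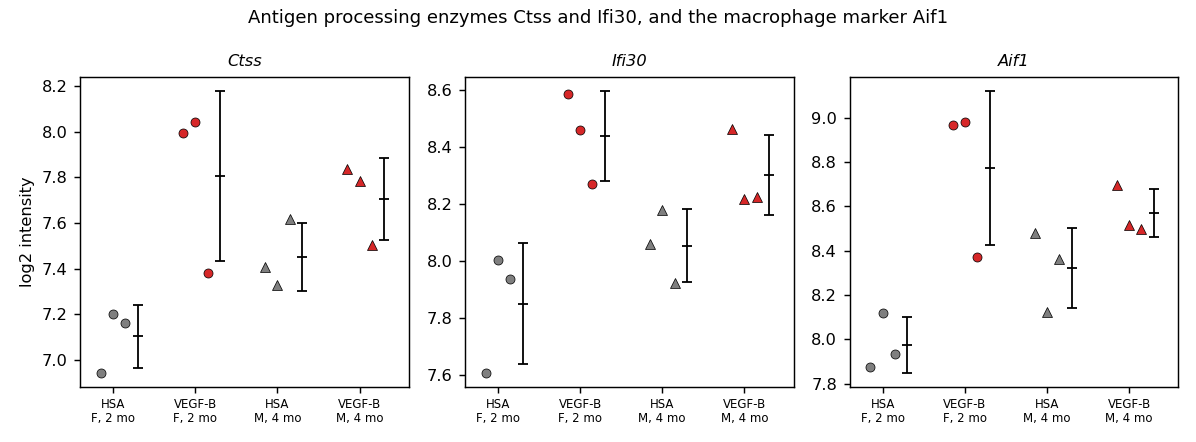
Normalized log2 intensity of Ctss and Ifi30, enzymes of the class II pathway, and of the macrophage marker Aif1, in AAV-HSA (grey) and AAV-VEGF-B (red) hearts of females after 2 months (circles) and males after 4 months (triangles); each point is 1 heart, bars are the mean with the SD of 3 hearts, and each panel has its own axis. The AAV-VEGF-B hearts of Ifi30 start at 8.22, above the highest AAV-HSA heart at 8.18.

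Of 12 listed class I pathway genes beside the members, 10 were tested and 0 passed with the vector (limma), where 5.2% of all probes passed. At an unadjusted p under 0.05, 5 of the 10 were higher, against 10.6% of all probes, and the median change was 0.27. Canx, a chaperone of class I heavy chains, had the smallest p, at 0.30 in log2 (SE 0.09, adjusted p = 0.062). Median scaling called 4 of the 10 higher, a setting in which 869 of the 10281 tested probes passed in either direction. Canx was at 0.43 there (limma, adjusted p = 0.0076), and it also passed without AAV-VEGF-B replicate 3 (0.34, adjusted p = 0.036). In females 0 of the 10 passed, where 2.53% of all probes were called higher, with 5 higher at an unadjusted p under 0.05 against 10% of all probes. Psmb8 changed by 0.70 in log2 there (limma, SE 0.28, adjusted p = 0.20).

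Interferon-gamma response genes were tested for 16 of 24 listed. Over the 12 hearts 0 passed (limma), where 5.2% of all probes passed. At an unadjusted p under 0.05, 2 were higher against 10.6% of all probes, and the median change was 0.09. Ifngr1, a chain of the interferon-gamma receptor, had the smallest p (log2 change 0.25, SE 0.08, adjusted p = 0.076). In females the median was 0.27 and 1 passed, where 2.53% of all probes were called higher, the adhesion molecule gene Icam1, which falls outside the rule for named genes and was chosen after its value was seen (0.79, SE 0.19, adjusted p = 0.041); 15 of the 16 had changes above 0, where 45.4% of all probes did. The call of Icam1 was lost without any of AAV-VEGF-B replicates 1, 2, 4, 5 and 6 and AAV-HSA replicates 1, 2, 4 and 6 (adjusted p from 0.053 to 0.17), and without the filter or with the female arrays alone (0.056 to 0.072). In males 5 of the 16 were above 0, against 46.3% of all probes, with a median of -0.08, and 0 passed, where 0.788% of all probes did. Of the genes most like Tap1, Cxcl9 had a change of 1.06 in log2 in females (SE 0.40, adjusted p = 0.17), Gbp2 0.67 (SE 0.25, adjusted p = 0.16) and Irf1 0.43 (SE 0.15, adjusted p = 0.14).

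Type I interferon response genes gave 2 rises of 15 tested over the 12 hearts, where 4.17% of all probes rose. Ifi44, an interferon-induced gene, was between 5.97 and 6.88 in AAV-HSA hearts (median 6.48) and between 7.03 and 7.51 in AAV-VEGF-B hearts (median 7.10), without overlap, and rose by 0.76 in log2 (SE 0.14, adjusted p = 0.0045). Ifit1, a sensor of foreign RNA, was between 5.06 and 6.07 against 5.85 and 7.18 and rose by 1.05 (SE 0.21, adjusted p = 0.0084). Its probe was above background on 1 of the 6 AAV-HSA and 6 of the 6 AAV-VEGF-B arrays. Both passed under every alternative in which they were tested, with changes from 0.36 to 0.89 for Ifi44 and from 0.51 to 1.20 for Ifit1, the lowest with the deposited log2 values. In females Ifi44 rose by 0.95 (adjusted p = 0.012; 0.060 without AAV-VEGF-B replicate 1), and Ifit1 had 0.92 (adjusted p = 0.069). The change in males was 0.58 for Ifi44 (adjusted p = 0.17) and 1.18 for Ifit1 (adjusted p = 0.053). The median change of the 15 genes was 0.14.

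RT1 holds many class I genes beside the members, as near-identical copies, so that signal at 1 probe can come from more than 1 gene. Of 27 such genes with a probe, 13 were tested; over the 12 hearts 1 rose, where 4.17% of all probes did, 5 were higher at an unadjusted p under 0.05 against 10.6% of all probes, and the median change was 0.35. RT1-CE7 was between 8.65 and 9.04 in AAV-HSA hearts (median 8.70) and between 8.96 and 9.74 in AAV-VEGF-B hearts (median 9.35), a rise of 0.63 (SE 0.13, adjusted p = 0.0076), with 0.64 in females (adjusted p = 0.067) and 0.63 in males (adjusted p = 0.14). In females 2 of the 13 rose, where 2.53% of all probes did: RT1-A1 by 1.13 (SE 0.27, adjusted p = 0.039) and RT1-CE15 by 0.93 (SE 0.21, adjusted p = 0.035), both chosen for naming after their values were seen. The call of RT1-A1 was lost without any of AAV-VEGF-B replicates 1, 2, 3, 4 and 6 and AAV-HSA replicates 2, 3 and 6 (adjusted p from 0.050 to 0.16) and that of RT1-CE15 without any of AAV-VEGF-B replicates 1 and 3 and AAV-HSA replicates 2, 4 and 6 (0.058 to 0.13). Between 0 and 4 of the 13 were called in females when 1 heart was left out, and between 0 and 6 under the other settings. RT1-A1 stood at 10.01, 10.53 and 9.95 in AAV-HSA females and at 11.87, 11.38 and 10.62 in AAV-VEGF-B females, and in males its change was 0.00 (adjusted p = 0.998).

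RT1-A2, also chosen after its values were seen, was low in 1 heart. In AAV-VEGF-B replicate 1 its level was 5.19, with a detection p of 0.387, that is, not above background, and in the other 11 hearts it ran from 8.87 to 10.85. The same heart had the highest RT1-A1 level of the 12, at 11.87. The change of RT1-A2 with the vector was -0.48 (SE 0.69, adjusted p = 0.74) over the 12 hearts and 0.29 without this heart, and in females -0.81 with it and 0.87 without it. Whether this heart differs in its RT1 haplotype or in the spot on the array was not tested, so the change of RT1-A2 has no settled direction.

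**Figure D5:**
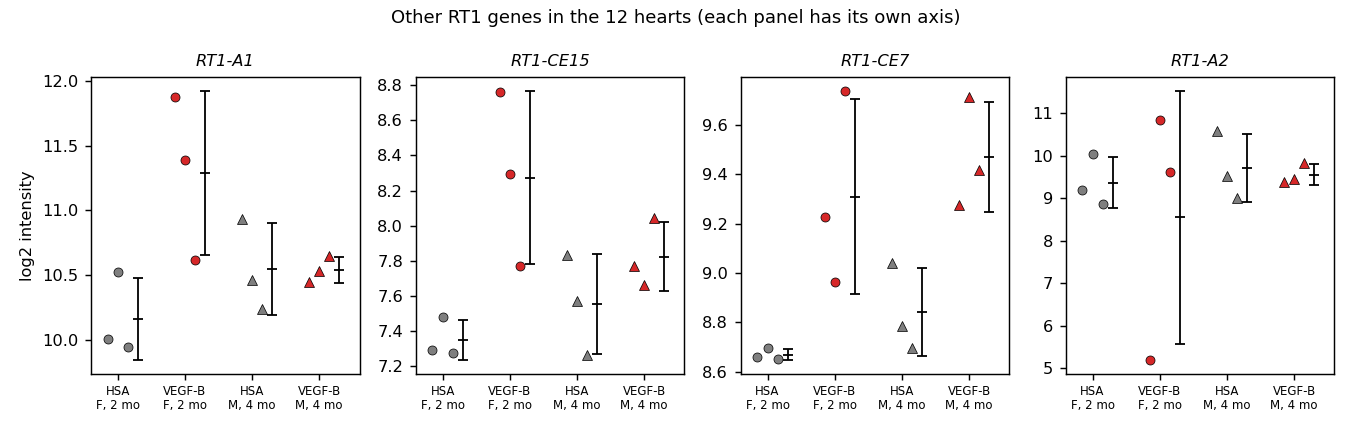
Normalized log2 intensity of RT1-A1, RT1-CE15, RT1-CE7 and RT1-A2 in AAV-HSA (grey) and AAV-VEGF-B (red) hearts of females after 2 months (circles) and males after 4 months (triangles); each point is 1 heart, bars are the mean with the SD of 3 hearts, and each panel has its own axis. For RT1-A2, 1 AAV-VEGF-B female lies at 5.19 and the other 11 hearts between 8.87 and 10.85.

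Markers of cells that carry class II moved with the members in part. Of 9 tested macrophage markers, 1 rose over the 12 hearts and 2 in females, where 4.17% and 2.53% of all probes did, and the median change in females was 0.44. Over the 12 hearts 7 of the 9 had changes above 0, where 43.8% of all probes did, and the lowest was -0.265. At an unadjusted p under 0.05 (limma), 4 were higher, against 10.6% of all probes, and 1 was lower. In females 8 of the 9 were above 0, against 45.4% of all probes. In males 0 passed, where 0.788% of all probes did, and 1 was lower at an unadjusted p under 0.05, with a lowest change of -0.4. Aif1, a calcium-binding protein of macrophages, stood at 7.88, 8.12 and 7.93 in AAV-HSA females and at 8.97, 8.98 and 8.37 in AAV-VEGF-B females, a rise of 0.80 (SE 0.16, adjusted p = 0.018), and C1qa, a chain of complement C1q chosen for naming after its value was seen, rose by 0.81 (SE 0.18, adjusted p = 0.028). The summed intensity of the 9 markers ran from 1639 to 1799 in AAV-HSA females, from 1920 to 2826 in AAV-VEGF-B females, from 1902 to 2347 in AAV-HSA males and from 2070 to 2662 in AAV-VEGF-B males. The call of Aif1 in females was lost without any of AAV-VEGF-B replicates 1 and 3 and AAV-HSA replicates 2 and 6 (adjusted p from 0.054 to 0.093), and that of C1qa without any of AAV-VEGF-B replicates 1 and 3 and AAV-HSA replicates 2 and 4 (0.061 to 0.12). With the 6 female arrays alone both calls were lost (adjusted p = 0.067 for Aif1 and 0.093 for C1qa). Over the 12 hearts Aif1 changed by 0.52 (adjusted p = 0.028), a call lost without any of AAV-VEGF-B replicates 1 and 3 and AAV-HSA replicates 2, 3, 4 and 6 (0.053 to 0.067). By immunostaining, the paper found no increase of leukocytes or macrophages in AAV-VEGF-B over AAV-HSA hearts. It does not state whether those were the hearts on these arrays. The part of macrophage RNA in the members' values was not tested.

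Of 9 listed dendritic cell markers 4 were tested. Over the 12 hearts 0 passed (limma), where 5.2% of all probes did, with 1 higher at an unadjusted p under 0.05, against 10.6% of all probes. In females 1 rose, where 2.53% of all probes did, Cd83 by 0.58 (SE 0.14, adjusted p = 0.041). That call was lost without any of AAV-VEGF-B replicates 1, 3, 4, 5 and 6 and AAV-HSA replicates 2, 5 and 6 (adjusted p from 0.051 to 0.15), and without the filter, with array weights or with the female arrays alone (0.056 to 0.086). Their sum ran from 843 to 968 in AAV-HSA females and from 827 to 1095 in AAV-VEGF-B females. The probes of Flt3, Batf3, Xcr1 and Clec9a were above background on 0 arrays. The same was true of the B cell markers Ms4a1, Pax5, Blnk and Cd22, and Cd79b, the 1 tested, changed by -0.01 in log2 (SE 0.10, adjusted p = 0.97). Of 4 tested T and NK cell markers, 1 fell over the 12 hearts, where 1.03% of all probes did. It was Gzmc, whose probe was above background on 5 of the 6 AAV-HSA arrays and 0 of the 6 AAV-VEGF-B arrays, a fall of at least 1.47-fold. The limma test of its log2 values, and not this bound, gave the adjusted p of 0.00072. Of 2 tested co-stimulation genes, 0 passed, where 5.2% of all probes did, with 0 at an unadjusted p under 0.05.

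The 6 tested left ventricular markers had changes from -0.15 to -0.01 with the vector, and 0 passed (limma), where 5.2% of all probes did. At an unadjusted p under 0.05 there were 0, where 10.6% of all probes were higher. These markers do not show that the hearts held equal shares of atrial tissue, and Myl7 differed among the females as given above. Of 5 endothelial markers 4 rose with AAV-VEGF-B, where 4.17% of all probes did, with a median of 0.52; without 1 heart the count was 2 to 4 and under the other settings 2 to 5, since Cdh5 and Tek lost their calls without any 1 of 8 hearts each (adjusted p from 0.053 to 0.095 and from 0.064 to 0.084). Myl7 had a log2 difference, males minus females, of -1.43 (adjusted p = 0.049), and the macrophage marker Mrc1 was higher in males (0.66, adjusted p = 0.039), and each of these calls was lost without any 1 of 10 hearts (0.056 to 0.11 and 0.054 to 0.084). Of 3 tested red blood cell markers 1 rose with the vector, where 4.17% of all probes did, with a median change of 0.06 and a lowest of -0.04. The marker that rose was Ahsp (1.15, adjusted p = 0.030), a call lost without any of AAV-VEGF-B replicates 3, 4 and 5 and AAV-HSA replicates 2, 3, 4, 5 and 6 (0.055 to 0.067), and without the filter or with the replicate block (0.070 to 0.088). The summed intensity of the 3 markers ran from 33550 to 37040 in AAV-VEGF-B females and from 34220 to 39760 in AAV-HSA females. The part of blood in the members' values was not tested. The arrays had median intensities from 151.8 to 179.6, between 39.2% and 43.5% of their probes had a detection p under 0.05, and the number of arrays limits the precision.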

How the data were processed

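Left ventricular RNA of 12 rats had been hybridised to bead arrays, 1 array per heart, and groups were taken from the sample labels. The authors deposited a table of probe intensities that had not been normalized, with a detection p-value for each probe and array, and a table of log2 values, which equal the log2 of the intensities after quantile normalization to within 0.00927. Per the methods, the authors used quantile normalization and empirical Bayes statistics in Chipster; how they corrected background or filtered probes is not given in the sources used here. No array batch is given there either.

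Intensities were processed here with neqc (limma 3.58.1, R 4.3.3), which corrects background by normexp with the detection p-values, adds an offset of 16, normalizes by quantiles and takes log2. Of 22517 probes, 10281 were tested, those detected (p under 0.05) on 3 arrays or more. lmFit and eBayes gave the comparison of the vectors, with no covariate; a fit of 4 groups gave the changes in females and males, their difference, and males against females. Benjamini-Hochberg adjustment ran over these probes, and a probe passed at an adjusted p under 0.05. A gene was given by its probe with the highest mean; symbols come from the platform annotation. Folds are 2 to the power of the log2 change, SDs are over hearts, and standard errors are limma's. Where a probe was above background on 0 arrays of a group, the fold is a lower bound. It sets the brighter group's mean against the dimmest detected signal (p under 0.05) on each array of the other group. Where the probe's own value was higher than that signal, its own value was used. Pairs of members were compared over 12 hearts with 100000 seeded permutations (Python 3.11.15, NumPy 2.4.6). Summed intensities add the normalized values of a list's tested probes on the linear scale.

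The members and the 14 other gene lists were chosen with earlier results of these data known. The lists were other class II and class I genes, interferon-gamma and type I interferon responses, co-stimulation, other RT1 genes, and markers of left ventricle, atrium, macrophages, dendritic cells, B cells, T and NK cells, endothelium and red blood cells. Genes named are the members, up to 4 passing genes of each list with the smallest p (the single smallest p where none passed), the 8 most like Cd74 and the 8 most like Tap1, and rat Vegfb; others are said to have been chosen after their values were seen. The steps were tested on simulated data. The alternatives were the deposited log2 values, median scaling, an offset of 50, no filter, a stricter filter, array weights, leaving out each heart, the replicate number as a block, and sex with duration as a block; the fits to 1 sex alone were added after seeing the data. Other probes of a member could not be tried, since each has 1. Arrays of transgenic rats and of a shorter experiment were not analysed here.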

Additional observations from a re-analysis of the deposited data

Results flagged for a closer look

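In groups of 6 hearts, a heart was flagged where its distance to the nearest other heart was large against the range of its vector group. Of 118 sets of a gene and a vector group examined, 8 were flagged, or 6.78%, where chance flags about 1 in 20. Of the 9 members 0 were flagged.

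Among genes beside the members, AAV-HSA replicate 1, the control with the highest level of each member, was the high one for RT1-CE7 (9.04, with the next heart at 8.79), Ifit1 (6.07, next 5.22) and Ahsp (7.48, next 5.90). AAV-VEGF-B replicate 1 was the low one for RT1-A2, at 5.19 with the next heart at 9.39. AAV-VEGF-B replicate 3 was the high one for the immunoproteasome genes Psmb8 (10.69, next 9.85) and Psmb10 (10.89, next 10.41). AAV-VEGF-B replicate 5 was the low one for Wdr12 (6.89, next 7.37). AAV-HSA replicate 2 was the high one for Vegfb, the rat gene of the vector's protein (10.04, next 9.68); the vector carries the human sequence, so this probe does not check the labels.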

How the results depend on the processing

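Each result was recomputed under the alternatives. Probes passing with the vector over 12 hearts, 535 in the report's setting, were 869 with median scaling and 342 with the replicate number as a block; members passing stayed at 0 in both, and without 1 heart were 0 to 1. Same-numbered hearts did not deviate together (correlations of deviations from -0.06 to 0.05) and the numbers do not pair animals by the labels; the block ended the calls of Ifi30 (adjusted p = 0.053), Nfyb and Ctss. The share of calls that were higher was 80.2% with the vector, 76.2% in females and 42.2% for males minus females, against 96.9%, 97% and 55.1% with median scaling. Probes passing in females, 341 in the report's setting, were 626 with median scaling, 132 with the 6 female arrays alone and 82 to 309 without 1 heart. Members passing in females, 2 in the report's setting, were 6 with median scaling, 0 without the filter, 1 with array weights, 0 with the female arrays alone and 0 to 3 without 1 heart. Probes passing in males, 81 in the report's setting, were 136 with the deposited log2 values, 127 with median scaling, 124 with an offset of 50, 125 with the stricter filter, 41 with the 6 male arrays alone and 7 to 78 without 1 heart. Probes passing between males and females, 109 in the report's setting, were 250 with the deposited log2 values, 180 with an offset of 50, 69 without the filter, 42 without the vector as a term and 25 to 108 without 1 heart. The number of member pairs with r above 0.5 was 23 to 33. The causes were not tested.

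Signs changed only for changes that passed under no setting. With median scaling the change of Cd74 was 0.05 with the vector, 0.10 in females and 0.00 in males, the male changes of RT1-DMa and RT1-DMb were 0.01 and 0.05, and males minus females was 0.03 for RT1-DMb and 0.01 for B2m. Males minus females was -0.02 for RT1-Ba with the deposited log2 values. The male change of Tap1 was -0.01 with those values, 0.00 with an offset of 50 and -0.02 with array weights. Without 1 heart, males minus females ran from -0.11 to 0.17 for RT1-Da, -0.16 to 0.15 for RT1-Ba, -0.07 to 0.02 for RT1-DMb and -0.17 to 0.02 for Tap1. The changes in males ran from -0.14 to 0.01 for Cd74, -0.01 to 0.38 for RT1-Da, -0.09 to 0.29 for RT1-Ba, -0.14 to 0.31 for RT1-Db1, -0.22 to 0.09 for RT1-DMa, -0.10 to 0.08 for RT1-DMb, -0.06 to 0.29 for B2m, -0.18 to 0.18 for Tap1 and -0.09 to 0.23 for Tap2. Cd74 ran from -0.15 to 0.06 in females and from -0.14 to 0.07 for males minus females in the change with the vector. RT1-A2 ran from -0.84 to 0.29 with the vector and from -1.96 to 0.87 in females.

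With 3 hearts per group and stratum, changes below about the half-width of the intervals in the report were not detectable. RT1-DMa and Ifit1 lie near background, where background correction widens differences.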
